A study of Homo sapiens with 6 samples.

Results

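The BCL2 family genes that decide between survival and death at the mitochondrial outer membrane were examined in the multiple myeloma cell line MM1.S, which is of human origin. The group holds 10 genes: the survival genes MCL1, BCL2, BCL2L1 and BCL2A1, the BH3-only death genes BCL2L11, BMF, PMAIP1 and BBC3, and the effector genes BAX and BAK1. Members were taken as every probe set that the array annotation pairs with one of these symbols, which gave 29 of the 54675 probe sets on the array. Cells of the knockdown group carried a lentiviral beta-catenin shRNA (labelled pKLO beta-catenin shRNA) and cells of the control group a control vector (pKLO GFP control); both were sorted for GFP and grown as 3 cultures each, with an Affymetrix array of 1 colour for each culture. How many hairpins were used is not stated in the labels, separate infections are not described, and no drug treatment is named. The p-values below therefore concern these cultures only, and their precision is limited by the number of arrays. Those from limma also draw the spread of each gene toward that of genes of like brightness. They do not measure the spread of the gene's own arrays alone.

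The proteins of this family work by binding each other. Survival members hold BAX and BAK1 in check, BH3-only members bind the survival members or the effectors, and once freed BAX and BAK1 open the outer membrane of the mitochondrion and let cytochrome c out. Myeloma cells commonly depend on MCL1, a short-lived survival protein, while BCL2L11 (the protein BIM) and PMAIP1 (NOXA) are among its binding partners.

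Values are the deposited log2 values, and a change is knockdown minus control on that scale. The scale is written below as log2(signal + 16), a form inferred from the floor of the values at 4. A change is said to have risen or fallen only where limma gave an adjusted p under 0.05. Each gene was read by the brightest of its probe sets with exactly 1 symbol, and was tested if the mean of that probe set over the 6 arrays reached 5.49, the median of all probe set means. CTNNB1, the targeted gene, was read by the brightest of its 3 probe sets. It gave 6.39, 6.53 and 6.34 in the knockdown arrays, against 7.82, 7.67 and 7.75 in the control arrays. The change was −1.33 (SE 0.10, limma adjusted p = 9.04e-12), and −0.36 with its probe sets averaged. The fall rested on the brightest probe set, and the others, not given singly here, did not fall on average. The plasma cell markers listed for the check of the cell line were all above the filter, 8 of 8, at group means of 7.20 to 10.81 in the knockdown and 6.81 to 10.87 in the control; their summed signal was 7099 to 7331 in the knockdown arrays and 6302 to 6844 in the control arrays. Of these 8 markers 4 were called higher and 3 lower (SDC1, TNFRSF17 and IRF4). The MAF myeloma genes MAF, CCND2 and ITGB7 summed to 13907 to 14416 in the knockdown arrays and 8909 to 9502 in the control arrays; the part of these shifts in the results below was not tested. Of the markers of other cells, CD3E, CD2, NKG7, CD14, MS4A1, PAX5 and COL3A1 lay below the filter. CD22, CD3D, LYZ, COL1A1, COL1A2 and DCN lay above it and were not called, and CSF1R and HBB were called higher by 0.31 and 0.24 (limma, adjusted p = 0.0332 and 0.0250). Summed signals of the B cell, T and NK cell, myeloid, fibroblast and erythroid marker lists overlapped between the groups. Probe sets for ribosomal RNA averaged 9.75 to 10.22 in the knockdown arrays and 8.60 to 9.63 in the control arrays; the part of this in the results below was not tested. Control replicate 1 stood apart in how far the 3′ control probe set lay above the 5′ one, on the log2 scale. For ACTB this gap was 0.54 to 0.64 in the knockdown arrays and 0.89, 0.53 and 0.59 in control replicates 1, 2 and 3. For GAPDH it was 0.26 to 0.33 in the knockdown arrays and 0.42, 0.18 and 0.13 in those controls. Its part in the results was not tested. Without control replicate 1, 7 member genes and 17 member probe sets were called higher. In bulk RNA, a change in the share of cells that express a gene and a change in RNA per cell cannot be told apart.

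Members of both kinds, survival and death, were higher in the knockdown. Of the 10 genes, 7 rose (MCL1, BCL2, BCL2L1, BCL2L11, BMF, PMAIP1 and BAX), 0 fell, BAK1 was not called, and BCL2A1 and BBC3 were not tested as genes. Among all 12939 genes tested, 25.3% were called higher and 22% lower (limma), so calls in either direction were common (47.3%). At an unadjusted p under 0.05, 1 member gene was lower, BAK1. The median change of the 8 tested members was 0.93, beside 0.05 over all genes tested. All 8 had a control mean above the filter, so none passed it through the knockdown arrays alone. The knockdown arrays did enter the choice of the brightest probe set. By control mean, BCL2L11 would be read by 1553088_a_at (7.94, change 0.08, not called) and not by 225606_at (7.86, change 1.35). BAX would be read by 211833_s_at (6.81, change 0.36, not called over all probe sets) and not by 208478_s_at (6.79). For the other tested members the choice would be the same. Gene tests with that choice were not run. With the probe sets used, the groups did not overlap for the 8 tested members, as for 54.4% of all genes tested.

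**Figure D1:**
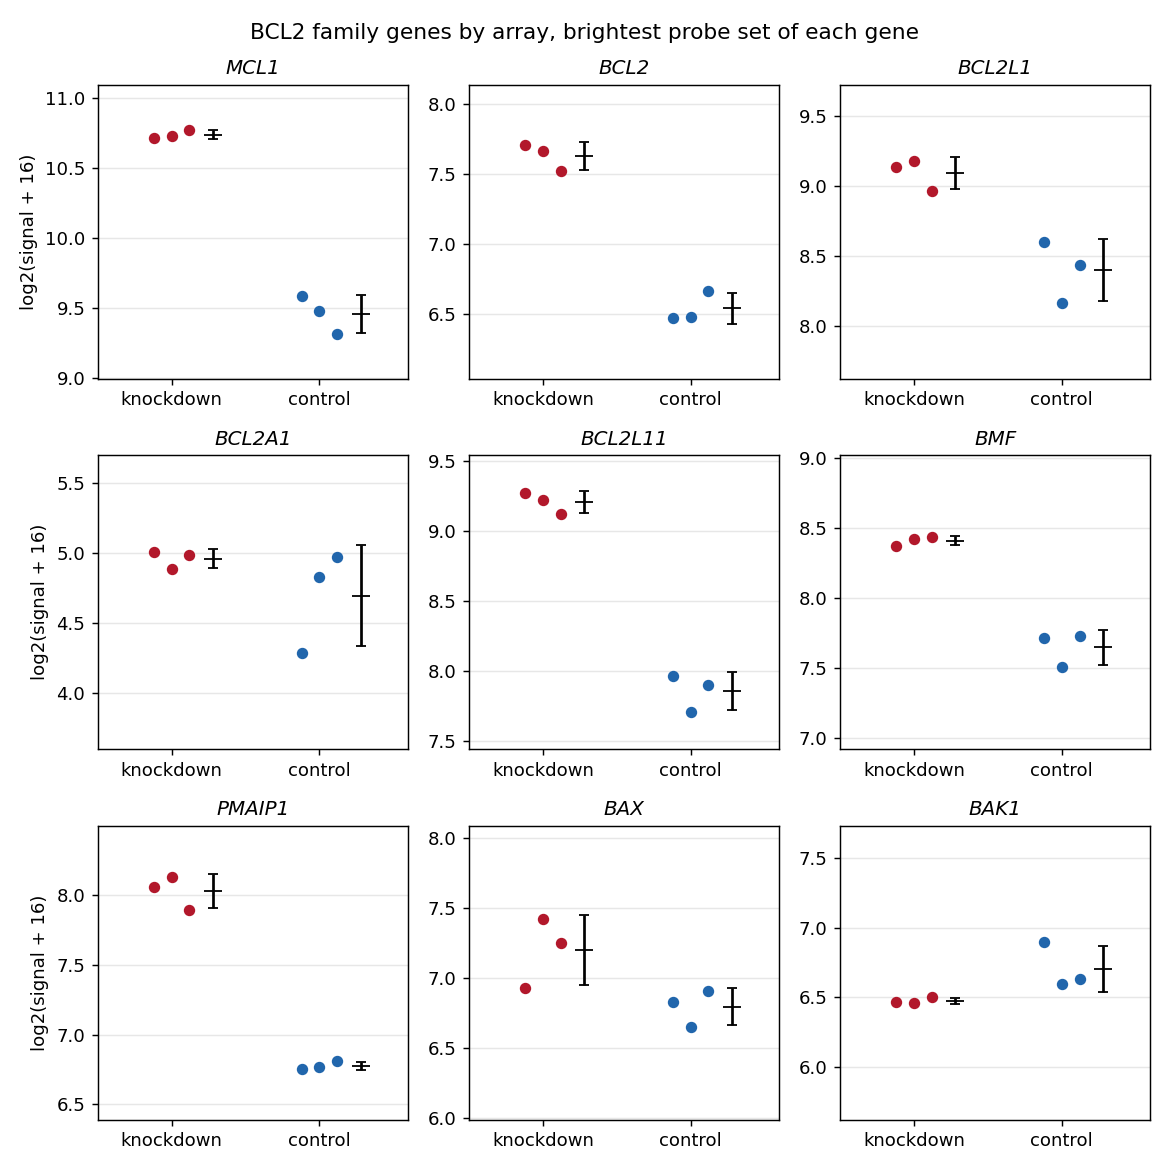
Value of each gene on each array, log2(signal + 16), by the brightest probe set; red points are the 3 knockdown arrays, blue points the 3 control arrays, and black marks give mean ± SD. Every panel spans 2.1 log2 units around its own centre, so distances but not heights compare between genes; the knockdown points lie above the control points for 7 genes, below them for BAK1, and overlap them for BCL2A1.

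Over the 29 probe sets, each tested on its own with adjustment over all 54613 non-control probe sets, 18 were called higher and 0 lower, where 13.3% of all probe sets were called higher and 9.95% lower. At an unadjusted p under 0.05, 0 of the 29 were lower. Of the 24 member probe sets at or above the filter 17 were called, and of the 5 below it 1 was called. The 17 include 204286_s_at of PMAIP1, which reached the filter of 5.49 only through the knockdown arrays (mean 6.32, beside 5.22 in the control). The median change over the 29 was 0.52, against 0.04 over all non-control probe sets. The groups did not overlap for 21 of the 29 (72.4%), where 37.2% of all probe sets did not. These shares over all probe sets include many dim ones, since the filter is the median of all probe set means. With 24 of 29 at or above it, the members were brighter as a set. Shares among probe sets of like brightness are not given here.

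Among the survival genes, MCL1 changed most by the brightest probe sets. MCL1 read 10.72, 10.73 and 10.78 in the knockdown arrays, against 9.58, 9.48 and 9.32 in the control arrays (probe set 200797_s_at). All knockdown arrays were above all control arrays, and the knockdown arrays lay closer together (SD 0.03) than the control arrays (SD 0.13). MCL1 rose by 1.28 (SE 0.07), or 2.43-fold (limma, adjusted p = 2.68e-15).

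MCL1 was read by 6 probe sets, and 4 of them were called higher. The size of the rise differed between them. Probe set 200798_x_at read 9.31, 9.38 and 9.32 in the knockdown and 8.50, 8.58 and 8.84 in the control, a change of 0.70 (SE 0.09). Probe set 200796_s_at read 7.54, 7.89 and 7.58 in the knockdown and 6.39, 7.03 and 7.12 in the control, a change of 0.82 (SE 0.16), with control replicate 1 as the lowest array. Probe set 214057_at gave 0.37 (SE 0.09) with no overlap between groups. The remaining pair were not called: 227175_at, below the filter, gave 0.32 (95% interval 0.07 to 0.58), and 214056_at gave 0.06 (interval −0.18 to 0.30). The interval of 200797_s_at, 1.13 to 1.43, did not meet that of any other MCL1 probe set except 200796_s_at (0.47 to 1.17). The stretch of transcript behind each was not examined. With the mean over all 6 probe sets the change was 0.59 (limma, adjusted p = 1.55e-05), and with unmarked probe sets preferred over those with an _x_ or _s_ in their name it was 0.37 (adjusted p = 0.00335). These letters are Affymetrix's signs that probes may match related sequences or several transcripts.

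BCL2, the founding survival gene of the family, read 7.70, 7.66 and 7.52 in the knockdown arrays, against 6.47, 6.48 and 6.66 in the control arrays (203685_at). The groups were well apart, and BCL2 rose by 1.09 (SE 0.11), or 2.13-fold (limma, adjusted p = 7.53e-10). This call rested on 1 of 4 probe sets. The other one above the filter, 203684_s_at, read 6.19, 6.16 and 6.50 in the knockdown and 6.34, 6.00 and 6.02 in the control. Those values overlapped, and the change of 0.17 had an interval of −0.11 to 0.44, which does not reach the interval of 203685_at (0.87 to 1.31). The dim probe sets 207005_s_at and 207004_at gave 0.34 and 0.18 and were not called. With the mean over the 4 probe sets BCL2 changed by 0.44 (limma, adjusted p = 4.08e-04).

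BCL2L1, which encodes BCL-XL and by splicing also the death-promoting BCL-XS, read 9.14, 9.18 and 8.97 in the knockdown arrays, against 8.60, 8.17 and 8.43 in the control arrays (212312_at). It rose by 0.69 (SE 0.10), or 1.62-fold (limma, adjusted p = 8.56e-07). Of its 4 probe sets 2 were called. The second called probe set, 206665_s_at, read 7.82, 7.92 and 7.95 in the knockdown and 7.13, 7.38 and 7.60 in the control, a change of 0.53 (SE 0.11). The probe sets 215037_s_at and 231228_at gave 0.11 (interval −0.12 to 0.33) and 0.02 (interval −0.26 to 0.31), with overlapping groups. The mean over the 4 gave 0.34 (limma, adjusted p = 0.00371).

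BCL2A1, an NF-kB-responsive survival gene of blood cells, was dim. Its probe set 205681_at read 5.01, 4.88 and 4.99 in the knockdown arrays, against 4.28, 4.82 and 4.97 in the control arrays. The groups overlapped: control replicates 2 and 3 lay within or near the knockdown range, and control replicate 1 was low. The change was 0.27 (interval −0.08 to 0.62; limma, adjusted p = 0.284 over all probe sets), and the gene did not reach the filter.

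Of the 10 probe sets of the BH3-only genes BCL2L11, BMF and PMAIP1, 9 were called higher and 0 lower. Over all probe sets 13.3% were called higher and 9.95% lower. BCL2L11 alone supplied 7 of the 10, so the count is largely of repeat readings of 1 gene. BCL2L11, whose protein BIM binds every main survival member and can activate BAX, read 9.28, 9.23 and 9.13 in the knockdown arrays, against 7.96, 7.71 and 7.90 in the control arrays (225606_at). It rose by 1.35 (SE 0.09), or 2.55-fold (limma, adjusted p = 3.64e-13). The groups were more than 1 log2 unit apart at their nearest arrays.

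BCL2L11 had the most probe sets, 7, and 6 were called higher. Probe set 1555372_at read 9.07, 8.99 and 8.96 in the knockdown and 7.66, 7.36 and 7.61 in the control, a change of 1.46 (SE 0.09). Probe set 1558143_a_at gave 1.13 (SE 0.13), with control replicate 1 lowest at 7.33. A second set of 3 gave smaller rises that lay close together: 0.51 for 1553096_s_at, 0.52 for 222343_at and 0.55 for 208536_s_at. The last of these was below the filter, at 5.53, 5.81 and 5.66 in the knockdown and 5.13, 5.10 and 5.11 in the control. Probe set 1553088_a_at was not called although it was well above the filter; it averaged 8.02 ± 0.12 in the knockdown and 7.94 ± 0.07 in the control (SD, n = 3 each), with overlapping groups. Its change of 0.08 had an interval of −0.11 to 0.28, which meets none of the intervals of the 3 probe sets that rose by over 1. BIM transcripts are spliced into several forms, and the forms behind each probe set were not examined. With the mean over the 7 probe sets the change was 0.80 (limma, adjusted p = 1.11e-06).

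BMF, whose protein binds survival members and is held at the cytoskeleton by a dynein light chain, was read by 1 probe set. It read 8.37, 8.42 and 8.43 in the knockdown arrays, against 7.71, 7.50 and 7.73 in the control arrays (226530_at). BMF rose by 0.76 (SE 0.10), or 1.69-fold (limma, adjusted p = 1.16e-07), with no overlap between groups.

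PMAIP1, whose protein NOXA binds MCL1 above all and marks it for degradation, read 8.06, 8.13 and 7.89 in the knockdown arrays, against 6.75, 6.77 and 6.81 in the control arrays (204285_s_at). It rose by 1.25 (SE 0.10), or 2.38-fold (limma, adjusted p = 2.21e-11). Its dimmer probe set 204286_s_at read 6.36, 6.59 and 6.00 in the knockdown and 5.22, 4.97 and 5.46 in the control, a change of 1.10 (SE 0.16). Both probe sets were called, and their changes lay within 0.15 of each other.

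BBC3, the gene of the BH3-only protein PUMA, has no probe set of its own in the annotation. The probe set 211692_s_at is paired there with BBC3, MIR3190 and MIR3191 together, so its signal cannot be given to any of them alone. It read 7.85, 7.90 and 8.05 in the knockdown arrays, against 6.25, 6.19 and 6.42 in the control arrays. Its change of 1.64 (SE 0.10; limma, adjusted p = 4.33e-08 over all probe sets) was above that of every other probe set of the group.

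The sequences before the starts of the tested BH3-only genes are shown because these genes rose together. They are RefSeq promoter windows of assembly GRCh38.p14, each 300 bases long, with 250 before and 50 from the gene start, written 5′ to 3′ on the gene's strand. Capitals mark matches, on either strand, to 6 short motifs: ATCAAAG of the TCF/LEF partners of beta-catenin, TGANTCA of AP-1 (FOS and JUN dimers), TGACGTCA of CREB and ATF factors (CRE), its core TGACG, which also lies within every full CRE, TGATGCAA of ATF4 with its partners, and GTAAACA of forkhead factors such as FOXO3. 
BCL2L11, chr2:111120664-111120963, plus strand: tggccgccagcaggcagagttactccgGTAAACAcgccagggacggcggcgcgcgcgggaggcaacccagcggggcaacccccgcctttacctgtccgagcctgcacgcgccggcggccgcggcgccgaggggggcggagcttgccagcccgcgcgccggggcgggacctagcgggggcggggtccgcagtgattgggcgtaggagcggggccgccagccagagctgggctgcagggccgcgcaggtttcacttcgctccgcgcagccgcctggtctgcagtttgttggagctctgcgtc
BMF, chr15:40108830-40109129, minus strand: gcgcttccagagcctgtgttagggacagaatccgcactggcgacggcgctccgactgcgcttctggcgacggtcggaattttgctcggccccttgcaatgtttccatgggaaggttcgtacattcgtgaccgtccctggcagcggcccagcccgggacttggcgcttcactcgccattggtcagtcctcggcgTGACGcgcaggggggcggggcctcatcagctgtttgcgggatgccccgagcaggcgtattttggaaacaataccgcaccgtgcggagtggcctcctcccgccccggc
PMAIP1, chr18:59899746-59900045, plus strand: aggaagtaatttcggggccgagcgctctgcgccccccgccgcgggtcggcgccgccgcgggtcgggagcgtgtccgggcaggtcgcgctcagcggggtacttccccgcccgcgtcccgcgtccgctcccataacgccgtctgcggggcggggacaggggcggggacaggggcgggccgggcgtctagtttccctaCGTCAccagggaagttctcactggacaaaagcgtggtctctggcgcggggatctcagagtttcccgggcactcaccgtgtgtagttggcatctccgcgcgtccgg

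The BCL2L11 window held 1 match, to the forkhead motif, at bases −223 to −217 from the start. The BMF window held 1 match to the CRE core at bases −57 to −53, and a second BMF start in the same table held none. The PMAIP1 window held 1 match to the CRE core on the opposite strand at bases −55 to −51. Windows were found for 9 of the 10 members, 11 windows in all. The CRE core matched in 5 of these 11, where 24.6% of all 35116 windows of the same length held it. The forkhead motif matched in 1 of 11 (3.42% of all windows), AP-1 in 1 of 11 (BBC3; 7.71%), the ATF4 motif in 1 of 11 (BCL2A1; 0.866%), the full CRE in 0 of 11 (1.85%) and TCF/LEF in 1 of 11 (BAK1; 2.62%). A match describes letters in a window and is no evidence of binding.

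The effector genes had small changes of opposite sign, of which that of BAX passed the test. BAX, which inserts into the mitochondrial membrane when activated, read 6.93, 7.42 and 7.25 in the knockdown arrays, against 6.83, 6.65 and 6.91 in the control arrays (208478_s_at). Knockdown replicate 1 lay only just above control replicate 3. BAX rose by 0.41 (SE 0.12), or 1.32-fold (limma, adjusted p = 0.00569). Without knockdown replicate 2 the change was 0.27 and was not called (limma, adjusted p = 0.109). Its second probe set, 211833_s_at, gave 0.36 (interval 0.09 to 0.63) with overlapping groups, and was not called over all probe sets (limma, adjusted p = 0.0557).

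BAK1, the effector that resides in the outer membrane, read 6.46, 6.46 and 6.50 in the knockdown arrays, against 6.89, 6.59 and 6.63 in the control arrays (203728_at). The knockdown arrays were all below the control arrays, and control replicate 1 was the highest. The change of −0.23 (SE 0.11) was not called (limma, adjusted p = 0.0876). It was called lower after quantile normalization (−0.27, limma, adjusted p = 0.0336), after array medians were made equal (−0.29, adjusted p = 0.0305) and without control replicate 2 (−0.29, adjusted p = 0.0419). The array medians themselves were 5.50 to 5.54 in the knockdown and 5.44 to 5.50 in the control.

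**Figure D2:**
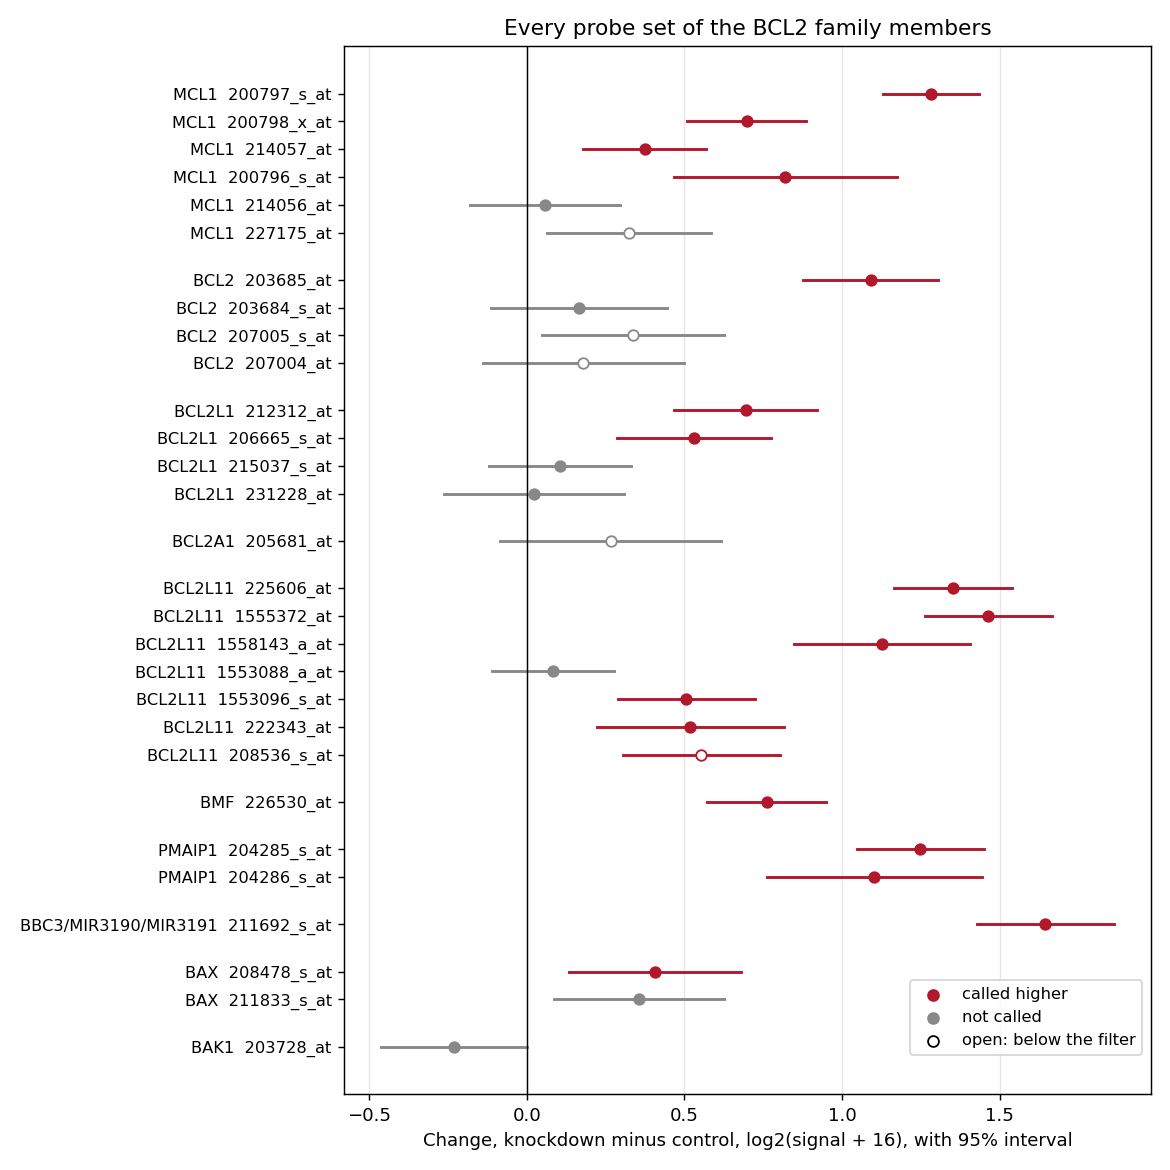
Change of each of the 29 probe sets (knockdown minus control, log2(signal + 16), with 95% interval of the limma fit), grouped by gene and ordered by brightness within a gene; red marks a call over all probe sets, grey none, and open points lie below the filter. Changes of MCL1 probe sets span 0.06 to 1.28 and those of BCL2L11 0.08 to 1.46, while the PMAIP1 pair lies at 1.10 and 1.25.

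Ordered by the change of the brightest probe set, BCL2L11 (1.35), MCL1 (1.28), PMAIP1 (1.25) and BCL2 (1.09) came first, BMF (0.76) and BCL2L1 (0.69) next, then BAX (0.41) and BAK1 (−0.23). The order depended on the probe sets. With probe sets averaged it was PMAIP1 (1.17), BCL2L11 (0.80), BMF (0.76), MCL1 (0.59), BCL2 (0.44), BAX (0.38), BCL2L1 (0.34) and BAK1 (−0.23). With unmarked probe sets preferred MCL1 changed by 0.37, less than BCL2 (1.09) and BCL2L1 (0.69). Whether members changed unequally was asked within arrays for 4 pairs, as the log2 value of one gene minus that of its partner. The p-values are exact two-sided permutation tests adjusted over the 4 pairs. With 3 against 3 arrays the unadjusted p cannot go below 0.1, so no pair could pass the threshold.

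PMAIP1 minus MCL1, the BH3-only gene and the survival gene whose protein it binds, was −2.72 ± 0.15 in the knockdown and −2.68 ± 0.16 in the control (SD, n = 3 each). The difference of −0.03 had a 95% interval of −0.39 to 0.32 (exact permutation p = 0.8, adjusted p = 0.8), so a shift within that interval either way remains possible. BCL2L11 minus MCL1 was −1.53 ± 0.11 in the knockdown and −1.60 ± 0.18 in the control, a difference of 0.07 (interval −0.27 to 0.40; exact permutation p = 0.7, adjusted p = 0.8). Both of these depended on the MCL1 probe set: with unmarked probe sets preferred the differences were 0.87 and 0.98, with no overlap of the groups.

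BCL2L11 minus BCL2 was 1.58 ± 0.02 in the knockdown and 1.32 ± 0.15 in the control (SD, n = 3 each), a difference of 0.26 (interval 0.01 to 0.51; exact permutation p = 0.1, adjusted p = 0.2). All 3 knockdown arrays were above all 3 control arrays. MCL1 minus BCL2L1, a pair of survival genes, was 1.65 ± 0.14 in the knockdown and 1.06 ± 0.23 in the control, a difference of 0.59 (interval 0.16 to 1.02; exact permutation p = 0.1, adjusted p = 0.2), again with no overlap. It turned to −0.32 with unmarked probe sets preferred.

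**Figure D3:**
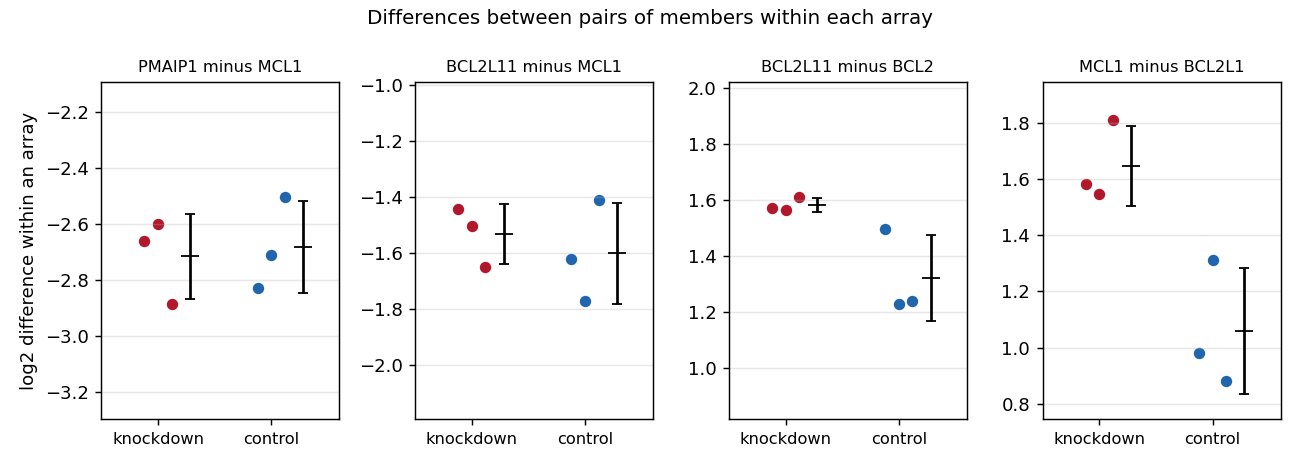
Log2 value of one gene minus that of its partner on each array (brightest probe sets); red points are knockdown arrays, blue points control arrays, black marks mean ± SD, and each panel spans 1.2 log2 units. The groups overlap for PMAIP1 minus MCL1 and BCL2L11 minus MCL1 and lie apart for the other pairs; heights reflect probe brightness and have no meaning as ratios of RNA.

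By profile over the 6 arrays, after centring each gene on its own mean, the genes nearest to MCL1 were INSL3, LAPTM5 and GARS1, with root mean square differences of 0.037, 0.038 and 0.039 log2 units. Those nearest to BCL2L11 were GOLGA8A, HYOU1 and TMC6, at 0.033, 0.037 and 0.037. With 2 groups of arrays this likeness mainly reflects an equal change: the 6 genes differed between the groups by 1.25 to 1.36.

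Of 13 further BCL2 family genes 9 were tested; 3 rose, 2 fell and 4 were not called, with a median change of 0.12. These shares are near those over all genes tested, of which 25.3% were called higher and 22% lower. BNIP3L, which directs mitochondria to autophagy, averaged 8.64 ± 0.08 in the knockdown and 7.57 ± 0.24 in the control (SD, n = 3 each), a rise of 1.07 (limma, adjusted p = 1.07e-09). BCL2L12 averaged 5.80 ± 0.06 in the knockdown and 6.64 ± 0.10 in the control, and fell by 0.85 (limma, adjusted p = 2.12e-07). BOK, an effector-like relative of BAX, rose by 0.43, and its control mean of 5.42 lay below the filter. BCL2L15 rose by 0.32 and BID, the BH3-only gene that links death receptors to mitochondria, fell by 0.24 (by 0.48 with unmarked probe sets preferred). The calls of BCL2L15 and BID were lost in several settings: BCL2L15 had adjusted p = 0.0685 after quantile normalization, and BID had adjusted p = 0.204 without knockdown replicate 1 (limma).

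Among factors reported to act on the members, 11 of 23 tested rose and 3 fell, where 25.3% of all genes tested were called higher and 22% lower. Their median change was 0.22, beside 0.05 over all genes tested. ATF3 rose by 3.93 and JUN by 3.70. With their probe sets averaged these changes were 2.75 and 2.97, and with unmarked probe sets preferred 2.75 and 2.67. DDIT3, which encodes CHOP and is reported to act on BCL2L11 in stressed cells, averaged 8.69 ± 0.06 in the knockdown and 6.14 ± 0.19 in the control (SD, n = 3 each), a rise of 2.55, or 5.86-fold (limma, adjusted p = 7.25e-18). TRIB3 rose by 2.17 and ATF4, which is reported to act on PMAIP1, by 1.72. FOXO3, a forkhead factor reported to act on BCL2L11 and BBC3, averaged 11.44 ± 0.01 in the knockdown and 10.27 ± 0.03 in the control, a rise of 1.17, or 2.25-fold (limma, adjusted p = 5.03e-17). These factors and the members were measured on the same arrays, and whether one acts on the other here was not tested.

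The 3 factors that fell were E2F1, a cell-cycle factor that can also raise BH3-only genes, by 0.69, and the dynein light chain genes DYNLL1 and DYNLL2, whose proteins tether BIM and BMF, by 0.38 and 0.34. DYNLL2 lost its call when its probe sets were averaged (−0.15; limma, adjusted p = 0.231), without control replicate 3 (−0.24, adjusted p = 0.106) or without knockdown replicate 3 (−0.25, adjusted p = 0.0807). Some enzymes reported to act on the lifetime of the MCL1 protein were picked after their values were seen: the ubiquitin ligase genes BTRC and HUWE1 rose by 0.47 and 0.22 and the deubiquitinase gene USP9X by 0.32, while FBXW7 (0.16) and the kinase gene GSK3B (−0.03) were not called.

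Of 10 tested mitochondrial death machinery genes 4 fell and 1 rose, where 22% of all genes tested were called lower and 25.3% higher. The median change was −0.09, and 1 of the 4 that fell, CYCS, was called higher when its probe sets were averaged. VDAC3 and VDAC1, channels of the outer membrane, averaged 9.49 ± 0.03 and 8.95 ± 0.05 in the knockdown, against 10.51 ± 0.06 and 9.87 ± 0.04 in the control (SD, n = 3 each), and fell by 1.02 and 0.92 (limma, adjusted p = 1.44e-13 and 1.77e-11). VDAC2, the channel that holds BAK1, differed by 0.15, which was no call (limma, adjusted p = 0.117). CYCS, the gene of cytochrome c, fell by 0.33 on its brightest probe set, and by the average of its probe sets it was higher by 0.27 (limma, adjusted p = 0.0157). DIABLO, whose protein frees caspases from inhibition, fell by 0.32. XIAP, a direct caspase inhibitor, averaged 7.49 ± 0.14 in the knockdown and 6.68 ± 0.22 in the control and rose by 0.81 (limma, adjusted p = 9.82e-07). Leaving out any 1 of the knockdown arrays made another XIAP probe set the brightest, and the rise was then 0.37 to 0.53, still called; averaged over its probe sets it was 0.49.

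**Figure D4:**
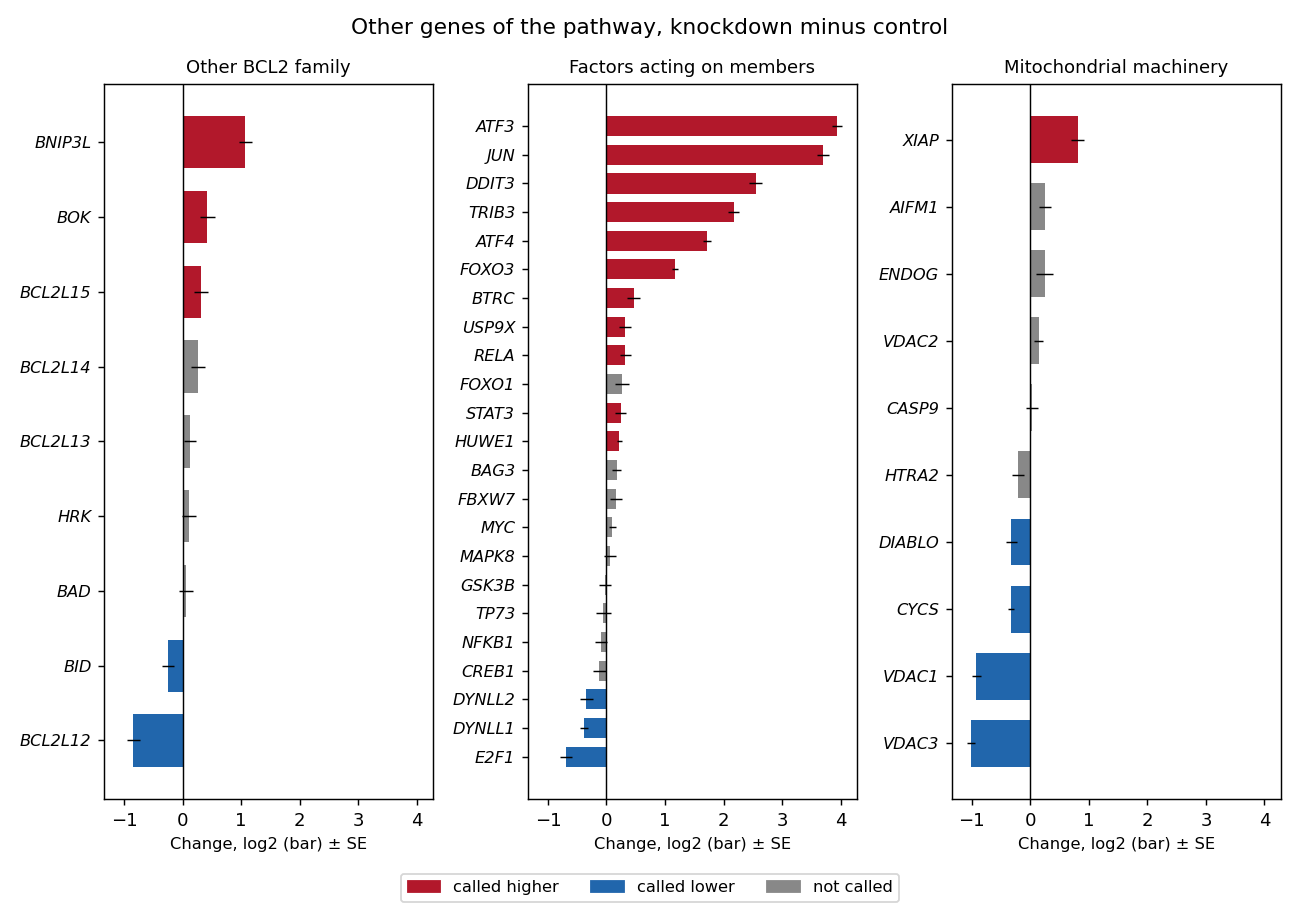
Change of each tested gene of 3 lists (knockdown minus control, log2(signal + 16), bars with SE of the limma fit); red marks genes called higher, blue genes called lower, grey genes not called. ATF3, JUN, DDIT3, TRIB3, ATF4, FOXO3 and BNIP3L stand above 1, while BCL2L12, VDAC1 and VDAC3 lie lowest, at −0.85, −0.92 and −1.02.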

How the data were processed

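RNA of 6 cultures of MM1.S cells was measured on Affymetrix arrays. The values deposited by the authors are log2 values, 1 per probe set and array, with a floor at 4, which fits log2(signal + 16), a form inferred here and stated in no label. Per the submitters' processing notes MAS5 and PLIER were used, with no role or version; the scaling between arrays is not stated there. A fold on this scale understates the change of dim probe sets. Part of the labels speaks of embryos, against the cell line named in the others, and was not used.

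Groups and replicate numbers came from the sample titles. The values were used as deposited. The 62 control probe sets stayed out of the tests. Of the 54613 others, 41091 had 1 symbol in the platform annotation. Each of 19775 genes was read by the brightest of its probe sets with 1 symbol, and 12939 reached the filter of 5.49. The groups were compared with limma 3.58.1 in R 4.3.3 (lmFit, eBayes with an intensity trend; two-sided, Benjamini-Hochberg over all genes or all non-control probe sets; threshold 0.05), which was checked on simulated data. Intervals are 95%, from the limma fit or, for pairs of genes, from the pooled SD of the 3 arrays per group. The members, the gene lists, the tests and the naming rule were chosen with earlier results of these data known. The rule took every member with every probe set, CTNNB1, up to 6 called genes per list by adjusted p with any that moved against the list, and the 3 nearest profiles to MCL1 and to BCL2L11. Some list genes are not reported here.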

Additional observations from a re-analysis of the deposited data

How the results depend on the processing

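Over 16 alternatives the count of member genes called higher stayed at 7 in 15 and was 6 without knockdown replicate 2, and over 13 alternatives the count of member probe sets called higher ran from 16 to 19. Leaving out 1 array at a time gave 0 to 1 member genes called lower; the 1, BAK1, was also called after quantile normalization and after array medians were made equal (1 and 1). The changes of MCL1, BCL2, BCL2L1, BCL2L11, BMF and PMAIP1 stayed called and higher in all 16, with changes from 0.37 to 1.34 for MCL1, 0.44 to 1.20 for BCL2, 0.34 to 0.79 for BCL2L1, 0.80 to 1.40 for BCL2L11, 0.64 to 0.80 for BMF and 0.97 to 1.35 for PMAIP1. With probe sets that carry no _x_ or _s_ preferred, the difference was 0.87 for PMAIP1 minus MCL1, 0.98 for BCL2L11 minus MCL1 and −0.32 for MCL1 minus BCL2L1. With the mean over probe sets it was 0.58 for PMAIP1 minus MCL1 and 0.25 for MCL1 minus BCL2L1, and CYCS turned to 0.27. With an offset of 64 it was −0.26 for PMAIP1 minus MCL1, −0.035 for BCL2L11 minus MCL1 and 0.39 for BCL2L11 minus BCL2, and with an offset of 4 it was 0.050 for PMAIP1 minus MCL1. Leaving out 1 array at a time, PMAIP1 minus MCL1 ran from −0.11 to 0.054 (0.054 without control replicate 3 and 0.051 without knockdown replicate 3) and BCL2L11 minus MCL1 from −0.016 (without control replicate 2) to 0.16. The cause of these shifts was not tested beyond the choice of probe set or offset that defines each. Arrays of the same replicate number did not deviate together (r of −0.04, −0.12 and −0.22 across probe sets), and no knockdown array correlated best with the control array of its own number, so the numbers were not read as pairs; with the replicate block 7 member genes and 18 member probe sets were called higher and 0 lower, and BID was not called. Probe sets near the floor, such as that of BCL2A1, can show little of a change.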
